A study of Mus musculus with 6 samples.

Results

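The 9 genes described are the interferon-induced transmembrane genes Ifitm1, Ifitm2 and Ifitm3 and 6 other interferon-response genes, Bst2, Isg15, Irf7, Stat2, Xaf1 and Rtp4. They were chosen by gene symbol, 9 of the 24346 symbols in the expression tables, and all 9 were found. The study sequenced RNA of mouse blood platelets from mice homozygous for the R734C knock-in of integrin β3 and from wild-type mice, with 3 libraries of each genotype. The change is a single amino acid in the tail of the protein that lies inside the cell. With its partner αIIb, integrin β3 binds fibrinogen on platelets, and the series title names a low number of large platelets and an impaired RhoA pathway. No treatment is named for either genotype. Age, sex, strain background, and whether the libraries of a genotype came from separate animals are not given in the sources used here. So a p-value here weighs the genotype difference only against the spread among these libraries, and that spread may be technical.

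Interferons act through cell-surface receptors and the kinases Jak1, Jak2 and Tyk2, in combinations that differ between interferon types. A complex with Stat2 and Irf9, used by some of these types, binds response elements in the promoters of interferon-stimulated genes. Irf7 is a transcription factor that drives interferon gene expression and is itself interferon-inducible. Isg15 is a ubiquitin-like protein that is attached to other proteins, Bst2 (tetherin) holds enveloped virus particles at the cell surface, and the Ifitm proteins are small membrane proteins that hinder virus entry. In platelets IFITM3 has also been linked to the uptake of fibrinogen through αIIbβ3. Platelets have no nucleus, so their RNA is largely what the megakaryocyte passed on.

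Values are FPKM, fragments scaled by transcript length and library total, so levels can be compared between genes of different length. Summed over all symbols, FPKM came to 856863, 758381 and 780235 in knock-in libraries 1, 2 and 3. The sums were 708432, 641278 and 644227 in wild-type libraries 1, 2 and 3, each below each knock-in sum. Values were not rescaled to a common sum, and the differences below were not tested on that scale. Relative depth, from the commonest ratio of low values, was 0.882 to 1.05 in knock-in and 1 to 1.05 in wild-type libraries. All 10 platelet markers averaged at least 1 FPKM, and their sum was 48220 to 53580 FPKM in knock-in and 51940 to 54090 FPKM in wild-type libraries. Of the 10, 2 passed as lower in the knock-in in the limma test described below, Tubb1 and Gp1ba, and 0 as higher. Over all genes tested 8.36% passed. Values of 6 of the 10 did not overlap between the genotypes, in both directions, against 30.7% of all genes tested. The 11 neutrophil markers summed to at most 1.90 FPKM in a knock-in and 2.23 FPKM in a wild-type library, and Camp, Elane and Mpo were listed at 0 in all. Of 12 monocyte and macrophage markers, Lyz2 was abundant, while the other 11 summed to 0.982 to 5.33 FPKM in knock-in and 2.94 to 4.39 FPKM in wild-type libraries, with Cx3cr1 listed at 0. The 10 T and NK cell markers summed to 5.06 to 8.83 FPKM in knock-in and 2.67 to 4.42 FPKM in wild-type libraries, almost all from Nkg7, with 6 markers, Cd3d, Cd3e and Cd4 among them, listed at 0. The 7 B cell markers summed to 0.837 to 3.14 FPKM in knock-in and 0.193 to 1.92 FPKM in wild-type libraries, with Ms4a1 and Pax5 at 0. The 8 endothelial markers summed to 374.8 to 412.8 FPKM in knock-in and 417 to 471 FPKM in wild-type libraries, mostly from Esam, with Robo4 at 0. The 11 markers of the red blood cell lineage (erythroid markers) made up 21.3%, 3.35% and 4.23% of the total FPKM in knock-in libraries 1, 2 and 3, against 13.5%, 7.61% and 6.02% in wild-type libraries 1, 2 and 3. Library 1 was the richest in erythroid RNA in both genotypes, and the groups overlapped. The T and NK cell sums, almost all Nkg7, were higher in each knock-in library than in each wild-type library. The endothelial sums, mostly Esam, were lower in each. Of the other endothelial markers, Cdh5, Tek and Emcn stayed under 1 FPKM. Tie1 averaged 6.63 FPKM in knock-in and 4.56 FPKM in wild-type libraries, and Kdr 2.911 and 3.995 FPKM. Sums that follow a single gene cannot say whether such cells differed between the genotypes. The part of such cells in the values below was not tested.

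Interferon acts through short response elements in the promoters of its target genes. RefSeq windows on GRCm38.p6, from 250 bases before to 50 bases after the gene start, were matched for 8 of the 9 genes, all but Rtp4. The interferon-stimulated response element core, GAAA followed by any 2 bases and a second GAAA and searched on both strands, was present for 5 of the 8, namely Ifitm2, Ifitm3, Bst2, Isg15 and Stat2, and for 3.99% of 27025 genes with a window. The 9 genes were named for their interferon response, so this share is a description of them. The windows of the 4 genes on which the results below turn are shown 5′ to 3′ on the gene's strand, with each match of that core in capitals.
Ifitm3, chr7:141010695-141010994, minus strand: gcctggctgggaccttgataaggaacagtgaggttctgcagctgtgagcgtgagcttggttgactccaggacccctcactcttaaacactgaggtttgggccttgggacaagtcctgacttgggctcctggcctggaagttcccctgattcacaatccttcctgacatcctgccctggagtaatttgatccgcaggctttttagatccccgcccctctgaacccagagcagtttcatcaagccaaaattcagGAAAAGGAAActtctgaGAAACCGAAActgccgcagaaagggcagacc
Ifitm2, chr7:140955912-140956211, minus strand: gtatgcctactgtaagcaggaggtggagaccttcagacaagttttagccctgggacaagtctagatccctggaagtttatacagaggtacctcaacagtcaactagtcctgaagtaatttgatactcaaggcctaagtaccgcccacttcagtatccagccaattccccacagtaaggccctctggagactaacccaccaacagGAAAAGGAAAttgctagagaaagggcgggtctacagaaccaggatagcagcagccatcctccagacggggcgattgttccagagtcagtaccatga
Isg15, chr4:156200769-156201068, minus strand: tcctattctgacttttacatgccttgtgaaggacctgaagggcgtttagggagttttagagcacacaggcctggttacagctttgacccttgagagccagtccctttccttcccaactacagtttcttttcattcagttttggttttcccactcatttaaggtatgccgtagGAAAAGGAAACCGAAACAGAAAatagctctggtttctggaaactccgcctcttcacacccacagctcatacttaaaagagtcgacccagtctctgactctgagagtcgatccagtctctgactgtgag
Irf7, chr7:141266375-141266674, minus strand: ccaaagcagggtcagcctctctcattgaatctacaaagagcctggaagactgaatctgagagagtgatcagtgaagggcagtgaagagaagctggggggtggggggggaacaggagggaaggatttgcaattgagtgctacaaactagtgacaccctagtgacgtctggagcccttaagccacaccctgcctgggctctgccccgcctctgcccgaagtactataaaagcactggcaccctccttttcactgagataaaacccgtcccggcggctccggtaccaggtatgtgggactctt

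Counted from 1 at the 5′ end of the window, the Ifitm3 matches lay at bases 253 to 262 and 270 to 279, and the single Ifitm2 match at bases 205 to 214. Ifitm2, Ifitm3 and Isg15 shared the same first element, GAAAAGGAAA. In Isg15 3 matches ran into each other from base 173 to base 194, each sharing a GAAA with the next. Irf7, Ifitm1 and Xaf1 had no match, which says only that these letters are not in their windows. The gamma-activated site core, TTC and GAA around any 3 bases, which reads the same on both strands, was present for Ifitm3 and Bst2 among the 8 and for 9.55% of all genes with a window. In both genes it overlapped a response element match. None of the 4 other Ifitm genes, Ifitm5, Ifitm6, Ifitm7 and Ifitm10, had a response element match in a window.

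**Figure D1:**
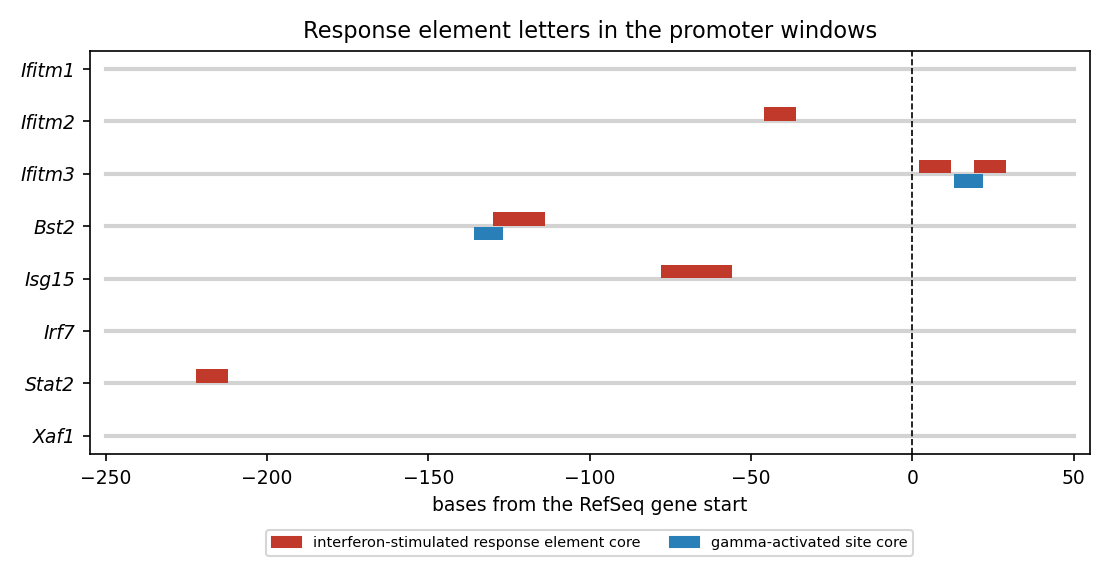
Positions of the response element letters in the 300-base RefSeq promoter windows of 8 of the 9 genes; the x axis gives bases from the gene start (dashed line), red bars the interferon-stimulated response element core and blue bars the gamma-activated site core. Ifitm3 has 2 red matches just after the start, Isg15 a run of 3, and Irf7, Ifitm1 and Xaf1 none.

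Ifitm3 rose in knock-in platelets, and Ifitm2 was higher in each knock-in library without passing the test. Ifitm3 measured 459, 602 and 492 FPKM in knock-in libraries 1, 2 and 3, against 264, 320 and 379 FPKM in wild-type libraries 1, 2 and 3. Each knock-in value lay above each wild-type value in FPKM, without rescaling to a common summed FPKM. The mean was 518 ± 74.8 FPKM in the knock-in and 321 ± 57.8 FPKM in the wild type (SD, n = 3 each). Knock-in minus wild type was 0.69 on the log2(FPKM + 1) scale, the log2 fold change used throughout (SE 0.15, limma adjusted p = 0.0296 over the 4859 genes tested), a 1.62-fold rise. Ifitm3 lies on chromosome 7 at 141009586 to 141010770 of GRCm38, minus strand, and has 2 exons.

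Ifitm2, of the same gene cluster, at 140954837 to 140955987 on the same strand, measured 164, 203 and 202 FPKM in knock-in libraries 1, 2 and 3. It measured 113, 138 and 147 FPKM in wild-type libraries 1, 2 and 3. The groups did not overlap, with means of 190 ± 22.3 FPKM in the knock-in and 133 ± 18 FPKM in the wild type (SD, n = 3 each). The log2 fold change was 0.52 (SE 0.14), just outside the threshold (limma adjusted p = 0.0550). Ifitm3 was more abundant than Ifitm2 in each of the 6 libraries. The ratio of Ifitm3 to Ifitm2 was 2.80, 2.96 and 2.43 in knock-in libraries and 2.34, 2.32 and 2.58 in wild-type libraries. The ratio overlapped between the genotypes (two-sided exact permutation p = 0.2, where 0.1 is the smallest that 3 against 3 allows).

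Of the 6 tested members, those with a mean of at least 1 FPKM over the 6 libraries, 1 was called higher and 0 lower. Over all genes tested 8.36% were called, 4.36% higher and 3.99% lower. At an unadjusted p under 0.05, 2 members were higher and 0 lower in limma, against 25.4% of all genes tested, 12.5% higher and 12.9% lower. Values did not overlap between the genotypes for 2 of the 6, both higher in the knock-in, against 30.7% of all genes tested, 14.9% with the knock-in higher and 15.8% with it lower. The median log2 fold change of the 6 was 0.20, against -0.01 over all genes tested. Fewer cells of a type and less RNA per cell cannot be told apart in these bulk samples.

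The Ifitm3 call did not survive every choice. It was lost after removal of the trend with transcript length (0.46 on the log2 scale, limma adjusted p = 0.104, with 6.48% of genes called), with quantile normalization (0.58, 0.0582), without a filter on low values (0.117) and without a variance trend (0.0996). It was also lost without knock-in library 2 (0.106) or 3 (0.102) and without wild-type library 1 (0.0660), 2 (0.104) or 3 (0.0527). The Ifitm2 value fell to 0.28 (adjusted p = 0.271) with the length trend removed, and both genes have short transcripts, of 655 and 678 exonic bases. Ifitm2 passed in limma without knock-in library 1 (0.0207), and without the library richest in haemoglobin RNA of each genotype (0.0127). In both of these fits each knock-in library left had less erythroid RNA than each wild-type library left. Genotype and erythroid RNA therefore cannot be told apart in them.

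**Figure D2:**
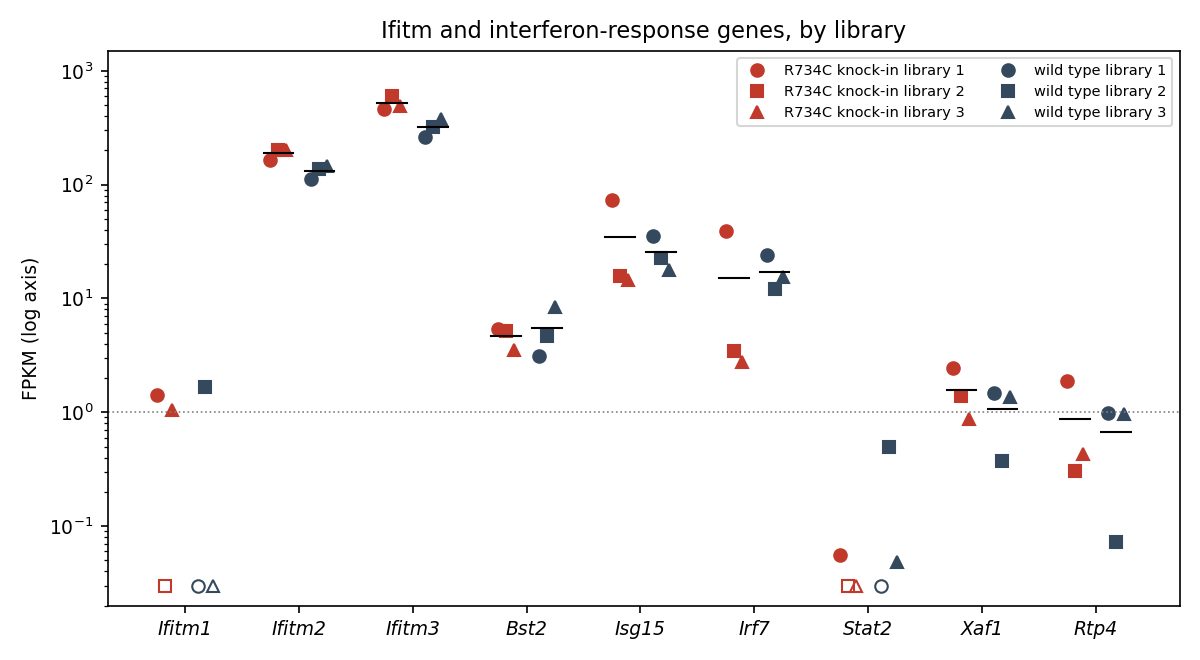
FPKM (log axis) of the 9 genes in each library, knock-in in red left of wild type in dark blue; the marker shape gives the library number, black bars the mean where no library is listed at 0, open symbols values listed at 0, and the dotted line 1 FPKM. Ifitm3 and Ifitm2 separate the genotypes, while library 1 is high for Isg15 and Irf7 in both genotypes.

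Ifitm2 and Ifitm3 made up 99.5% or more of the summed FPKM of the 7 Ifitm genes in each library. That sum was 625, 805 and 696 FPKM in knock-in libraries and 376, 461 and 526 FPKM in wild-type libraries. Ifitm1, which lies between them on the plus strand at 140967221 to 140969825, stayed at the edge of detection. It was 1.41 and 1.04 FPKM in knock-in libraries 1 and 3 and listed at 0 in library 2, against 1.66 FPKM in wild-type library 2 and 0 in the other two. Ifitm5, Ifitm6 and Ifitm7 were listed at 0 in all 6 libraries, and Ifitm10 stayed under 1 FPKM. Ifitm1 and these 4 genes were not tested, being under a mean of 1 FPKM.

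The family holds near copies, and this bears on its values. Of the 50-base stretches of Ifitm3 transcripts, 10% occur exactly in a transcript of another gene, namely Ifitm2, Ifitm1 and 3 predicted genes, Gm7676, Gm11951 and Gm45717. Of those of Ifitm2, 48.5% do, most of them in Gm45717, a predicted protein-coding gene that shares 268 exonic bases with Ifitm2 on the same strand. How reads in such stretches were assigned is not given in the sources used here, so the split among these genes is uncertain, for Ifitm2 most of all.

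The genes that flank the cluster, which spans 68967 bases from Ifitm5 to Ifitm6, were checked in turn. Nlrp6, an inflammasome sensor gene on the Ifitm5 side, fell to 13.4, 14.2 and 15.0 FPKM in knock-in libraries, against 23.6, 21.9 and 25.0 FPKM in wild-type libraries (log2 fold change -0.69, SE 0.14, limma adjusted p = 0.0228). Its direction was opposite to that of Ifitm3. The call was lost with no filter (limma adjusted p = 0.0536), with no variance trend (0.0651), and in each omission of 1 library except that of knock-in library 1 (0.0522 to 0.0921). Pgghg, listed as Athl1, stayed outside the threshold (log2 fold change -0.37, limma adjusted p = 0.649). Cox8b was above 0 in 1 wild-type library, and B4galnt4 and Pkp3, on the Ifitm6 side, were listed at 0 throughout.

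The 5 tested genes whose levels were most like Ifitm3 over the 6 libraries were Vdac3, Commd6, Samm50, Pdrg1 and Atg10, with Pearson correlations of 0.994, 0.994, 0.993, 0.993 and 0.992 on the log2 scale. Vdac3 and Samm50 encode proteins of the outer mitochondrial membrane. Vdac3, the most alike, measured 442, 497 and 472 FPKM in knock-in libraries, against 354, 389 and 417 FPKM in wild-type libraries. None of the 5 passed the test by itself (limma adjusted p from 0.0652 to 0.313). With 6 libraries and 4859 genes, correlations of this size describe these libraries only.

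Isg15 and Irf7 followed another pattern, high in library 1 of each genotype. Isg15 measured 73.4, 15.7 and 14.6 FPKM in knock-in libraries 1, 2 and 3, against 35.7, 22.6 and 17.8 FPKM in wild-type libraries 1, 2 and 3. The knock-in values lay on both sides of the wild-type ones, and the log2 fold change of 0.08 did not pass (SE 0.56, limma adjusted p = 0.948). Isg15 lies on chromosome 4 at 156199424 to 156200818, minus strand.

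Irf7 measured 39.0, 3.42 and 2.75 FPKM in knock-in libraries 1, 2 and 3, against 24.2, 12.1 and 15.3 FPKM in wild-type libraries 1, 2 and 3. Knock-in library 1 stood above all wild-type libraries, and knock-in libraries 2 and 3 stood below all of them. The log2 fold change was -1.01 and did not pass (SE 0.80, limma adjusted p = 0.490). Without knock-in library 1 it was -2.11 and Irf7 passed as lower (limma adjusted p = 0.00449), as it did without the library richest in haemoglobin RNA of each genotype (-1.84, 0.00538). Over all genes, 12.1% and 14.0% passed in these fits. In both fits each knock-in library left had less erythroid RNA (25400 and 32972 FPKM) than each wild-type library left. Genotype and erythroid RNA cannot be told apart in them. Irf7 lies on chromosome 7 at 141262706 to 141266481, minus strand, and shares 45 exonic bases with Phrf1 on the other strand. The library kits do not mark strand, so fragments there cannot be told apart.

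The sum of the erythroid markers was 182719, 25400 and 32972 FPKM in knock-in libraries 1, 2 and 3, against 95290, 48794 and 38762 FPKM in wild-type libraries 1, 2 and 3. Isg15 followed that order except that knock-in libraries 2 and 3 changed places. Correlations and a covariate fit are given below, and the cell source of the Isg15 and Irf7 RNA was not tested. Per 1000 FPKM of erythroid markers, Isg15 amounted to 0.402, 0.620 and 0.443 FPKM in knock-in and 0.374, 0.463 and 0.460 FPKM in wild-type libraries. The highest Isg15 level was 5.03 times the lowest, while the highest of these ratios was 1.66 times the lowest. For Irf7 the ratio was 0.213, 0.135 and 0.0835 FPKM in knock-in and 0.254, 0.249 and 0.395 FPKM in wild-type libraries. These ratios did not overlap between the genotypes, nor did those of Ube2l6, given below. Plain FPKM values did not overlap for 30.7% of all genes tested, and the share for such ratios was not computed.

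Across the 6 libraries Isg15 correlated with the log2 erythroid sum (Pearson r = 0.983, exact permutation p = 0.00278, Benjamini-Hochberg p = 0.0167 over the 6 tested members; Spearman rho = 0.943, exact p = 0.0167, adjusted 0.1). Without library 1 of both genotypes, the libraries farthest from the median, r was 0.836 over 4 libraries. For Irf7 r was 0.889 (exact p = 0.0250, adjusted 0.0750) and rho 0.886 (exact p = 0.0333, adjusted 0.1), with r = 0.771 over the 4 libraries. Ifitm3 and Ifitm2 gave r = -0.395 and -0.494 (exact p = 0.422 and 0.311, adjusted 0.507 and 0.467) and rho = -0.657 for each (exact p = 0.175, adjusted 0.263), with r = -0.989 and -0.894 over the 4 libraries. Bst2 and Xaf1 gave r = -0.135 and 0.581 (exact p = 0.787 and 0.232, adjusted 0.787 and 0.464) and rho = -0.03 and 0.486 (exact p = 1 and 0.356, adjusted 1 and 0.427), with r = 0.148 and -0.745 over the 4 libraries. In the 4 libraries left, each knock-in library had less erythroid RNA than each wild-type library. The r values over these 4 therefore cannot separate genotype from erythroid RNA. Each genotype has 3 libraries, too few for a correlation of its own. With the log2 erythroid sum as a covariate, chosen after seeing the data, Ifitm3 and Ifitm2 passed as higher in limma (log2 fold changes 0.68 and 0.51, adjusted p = 0.00439 and 0.0103). Irf7 was -0.92 in that fit (adjusted p = 0.0522) and Isg15 0.15 (0.596), while 12.6% of all genes passed.

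**Figure D3:**
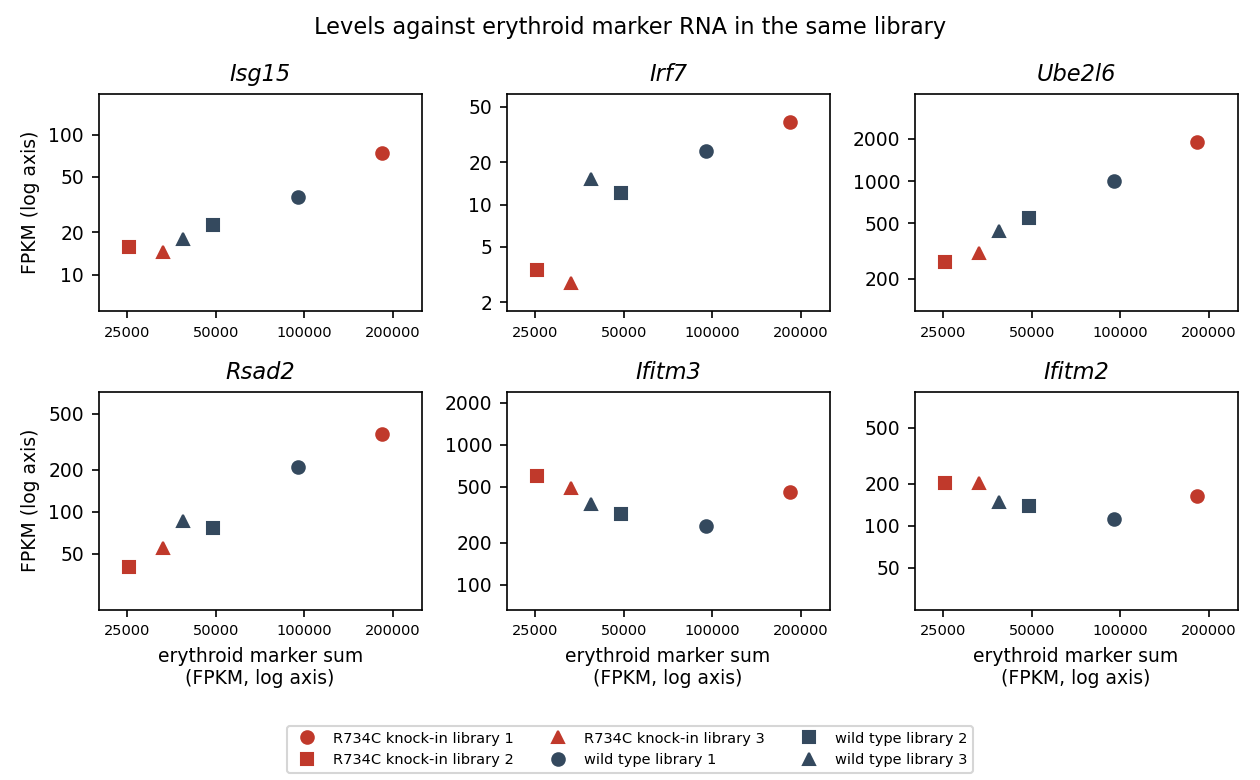
FPKM of 6 genes (log y axes, each spanning the same number of doublings) against the summed FPKM of the erythroid markers (log x axis) in the 3 knock-in libraries (red) and 3 wild-type libraries (dark blue). Isg15, Ube2l6 and Rsad2 climb with erythroid RNA over the 6 libraries, Irf7 lies lower in knock-in libraries 2 and 3, and Ifitm3 and Ifitm2 do not climb.

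The partners of Isg15 were read beside it. Ube2l6, the conjugating enzyme of the ISG15 system, measured 1885, 262 and 304 FPKM in knock-in libraries 1, 2 and 3, against 1000, 546 and 442 FPKM in wild-type libraries 1, 2 and 3. Its levels spanned 7.19-fold, while its ratio to erythroid markers spanned only 1.24-fold, from 9.22 to 10.3 FPKM per 1000 in knock-in and 10.5 to 11.4 FPKM per 1000 in wild-type libraries. It did not pass with all libraries (log2 fold change -0.23, limma adjusted p = 0.878), and it passed as lower without knock-in library 1 (-1.14, 0.0360). Without that library each knock-in library had less erythroid RNA than each wild-type one, so genotype and erythroid RNA cannot be told apart. Uba7, the activating enzyme, measured 98.9, 110 and 111 FPKM in knock-in libraries, against 69.0, 84.6 and 95.6 FPKM in wild-type libraries. Its groups did not overlap, and it stayed outside the threshold (log2 fold change 0.37, limma adjusted p = 0.136). Of the 4 tested genes of ISG15 conjugation and removal, 0 passed in limma, against 8.36% of all genes tested. At an unadjusted p under 0.05 in limma 1 was higher, a threshold that 12.5% of all genes tested passed as higher. Usp5, a deubiquitinase that can act on ISG15, had a log2 fold change of 0.15 (adjusted p = 0.774).

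The remaining 4 members were low. Bst2 measured 5.43, 5.15 and 3.50 FPKM in knock-in libraries 1, 2 and 3, against 3.13, 4.72 and 8.49 FPKM in wild-type libraries 1, 2 and 3. The groups overlapped, and the log2 fold change of -0.11 did not pass (SE 0.32, limma adjusted p = 0.876). Xaf1, a proapoptotic factor gene, measured 2.46, 1.38 and 0.864 FPKM in knock-in libraries, against 1.48, 0.370 and 1.35 FPKM in wild-type libraries. It stayed outside the threshold (log2 fold change 0.31, SE 0.35, limma adjusted p = 0.636). Rtp4, a chaperone for membrane receptors, was under a mean of 1 FPKM and not tested, with 1.89, 0.303 and 0.431 FPKM in knock-in libraries, against 0.986, 0.0719 and 0.966 FPKM in wild-type libraries. Stat2 was near the floor, with 0.0562 FPKM in knock-in library 1, 0.494 and 0.0486 FPKM in wild-type libraries 2 and 3, and 0 listed elsewhere.

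Ordered by mean, the members ran Ifitm3, Ifitm2, Isg15, Irf7, Bst2, Xaf1, Rtp4, Ifitm1 and Stat2. Each of the first 3 lay above the next gene in all 6 libraries, as did Bst2 above Xaf1 and Xaf1 above Rtp4. Irf7 and Bst2 were not separated, since Irf7 was the higher in 1 of 3 knock-in and 3 of 3 wild-type libraries. Rtp4, Ifitm1 and Stat2 were not separated either. Both Xaf1 and Rtp4 were, like Isg15 and Irf7, highest in library 1 of each genotype. Among tested genes that placed 3 of 6 members there, against 12.1% of all genes tested and 10 of 10 tested erythroid markers.

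Other interferon-stimulated genes gave no call. Of 68 listed, 21 were tested, and 0 passed in limma in either direction, against 8.36% of all genes tested. Their median log2 fold change was 0.07. At an unadjusted p under 0.05, 3 were higher and 1 lower, against 25.4% of all genes tested in either direction. The most abundant after Ube2l6 were Isg20, an RNA exonuclease gene, at 1113, 457 and 442 FPKM in knock-in and 646, 468 and 404 FPKM in wild-type libraries, and Lgals3bp, a secreted glycoprotein gene. Lgals3bp measured 209, 220 and 173 FPKM in knock-in and 216, 258 and 300 FPKM in wild-type libraries (log2 fold change -0.36, limma adjusted p = 0.169). For Isg20 the difference on that scale was 0.29 (limma adjusted p = 0.652).

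Of those 21 genes, 7 were highest in library 1 of each genotype, against 12.1% of all genes tested. They were Ifi27, Oas3, Rsad2, Usp18, Cmpk2, Isg20 and Ube2l6. Rsad2, the gene of the antiviral protein viperin, measured 360, 40.1 and 55.1 FPKM in knock-in libraries 1, 2 and 3, against 211, 76.1 and 85.4 FPKM in wild-type libraries 1, 2 and 3. It was chosen after its values were seen. Its levels spanned 8.97-fold and its ratio to erythroid markers 1.42-fold. Ifit2, chosen likewise, did not follow library 1, with 115, 131 and 143 FPKM in knock-in and 114, 65.0 and 97.2 FPKM in wild-type libraries (log2 fold change 0.52, limma adjusted p = 0.142). Without the library richest in haemoglobin RNA of each genotype, 4 of the 21 passed as lower in limma, Ube2l6, Rsad2, Oas3 and Lgals3bp, and 1 as higher, Ifit2. Over all genes, 14% passed in that fit. Its knock-in libraries had less erythroid RNA (25400 and 32972 FPKM) than its wild-type ones (48794 and 38762 FPKM). Genotype and erythroid RNA cannot be told apart there. With the log2 erythroid sum as a covariate, Ube2l6 and Rsad2 did not pass (-0.15 and -0.17, limma adjusted p = 0.290 and 0.488). Nor did Lgals3bp (-0.36, 0.119), while Isg20 passed as higher (0.33, 0.0325). In the covariate fit 12.6% of all genes passed.

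Upstream of interferon, 2 adaptor genes of virus sensing fell in knock-in platelets. Mavs, the mitochondrial adaptor of the RNA sensors, fell to 24.7, 20.9 and 18.7 FPKM in knock-in libraries 1, 2 and 3, against 39.4, 63.2 and 64.1 FPKM in wild-type libraries 1, 2 and 3. The groups did not overlap, with a log2 fold change of -1.31 and an SE of 0.21 (limma adjusted p = 0.0105). Myd88, the adaptor of most Toll-like receptors, fell to 4.43, 3.29 and 6.31 FPKM in knock-in libraries, against 11.7, 9.90 and 11.7 FPKM in wild-type libraries (log2 fold change -1.12, SE 0.23, limma adjusted p = 0.0245). Of 16 listed genes of this step 6 were tested, 2 fell and 0 rose, against 8.36% called over all genes tested and 3.99% called lower. The median log2 fold change of the 6 was -0.42, against -0.01 over all genes tested. Irak1, a kinase downstream of Myd88, had 0.14 (limma adjusted p = 0.682), and Tlr3, Tlr9, Tmem173 (STING) and Mb21d1 (cGAS) were listed at 0 in all libraries.

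Interferon genes themselves were not detected at this depth as more than traces. Of 21 listed ligand genes, 19 were listed at 0 in all 6 libraries, and the 21 summed to at most 0.207 FPKM in a knock-in and 1.10 FPKM in a wild-type library. Among 5 tested receptor and kinase genes 1 rose and 0 fell, against 4.36% of all genes tested called higher. It was Il10rb, a receptor chain shared by interferon lambda and interleukin-10 family cytokines, at 32.3, 33.1 and 35.6 FPKM in knock-in and 23.2, 16.6 and 16.6 FPKM in wild-type libraries (log2 fold change 0.82, SE 0.16, limma adjusted p = 0.0211). Ifnlr1, the chain specific to interferon lambda, was listed at 0. The kinases Jak1 and Jak2 did not pass, with log2 fold changes of -0.31 and 0.13 (limma adjusted p = 0.12 and 0.594).

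The transcription factor gene Stat3 measured 14.8, 9.23 and 11.2 FPKM in knock-in libraries, against 16.2, 19.0 and 15.1 FPKM in wild-type libraries. The groups did not overlap, and its log2 fold change of -0.50 did not pass (limma adjusted p = 0.165). Of 11 listed inhibitors only the phosphatase gene Ptpn11 was tested, at 0.25 (limma adjusted p = 0.302).

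Among GTPase genes that respond to interferon gamma, Igtp (Irgm3), which acts on vacuoles that hold pathogens, fell to 277, 262 and 245 FPKM in knock-in libraries, against 420, 474 and 402 FPKM in wild-type libraries. Each knock-in value lay below each wild-type value (log2 fold change -0.72, SE 0.10, limma adjusted p = 0.00846). Of 6 tested GTPase genes 1 fell and 0 rose, against 3.99% of all genes tested called lower, with a median log2 fold change of -0.51. Ifi47 and Irgm2 had -0.39 and -0.63 and did not pass (limma adjusted p = 0.163 and 0.131).

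Taking the interferon lists as 1 set of 158 genes beside the members, 43 were tested, 1 rose and 3 fell, against 8.36% called over all genes. None of these 4 passed in limma without a variance trend (adjusted p from 0.0623 to 0.0713), and with no filter Mavs, Il10rb and Myd88 did not (0.0519, 0.0679 and 0.0824). Some calls were also lost without single libraries. Mavs did not pass without knock-in library 2 (limma adjusted p = 0.0560) or 3 (0.0648) or wild-type library 2 (0.0585) or 3 (0.0550). Il10rb did not pass without those libraries either (0.0745, 0.0946, 0.0874 and 0.0836). Myd88 passed only without knock-in library 1 among the 6 single omissions (0.0554 to 0.0958 in the others), and not without the haemoglobin-richest library of each genotype (0.0639). Igtp did not pass without knock-in library 3 (0.0554) or wild-type library 2 (0.0516).

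**Figure D4:**
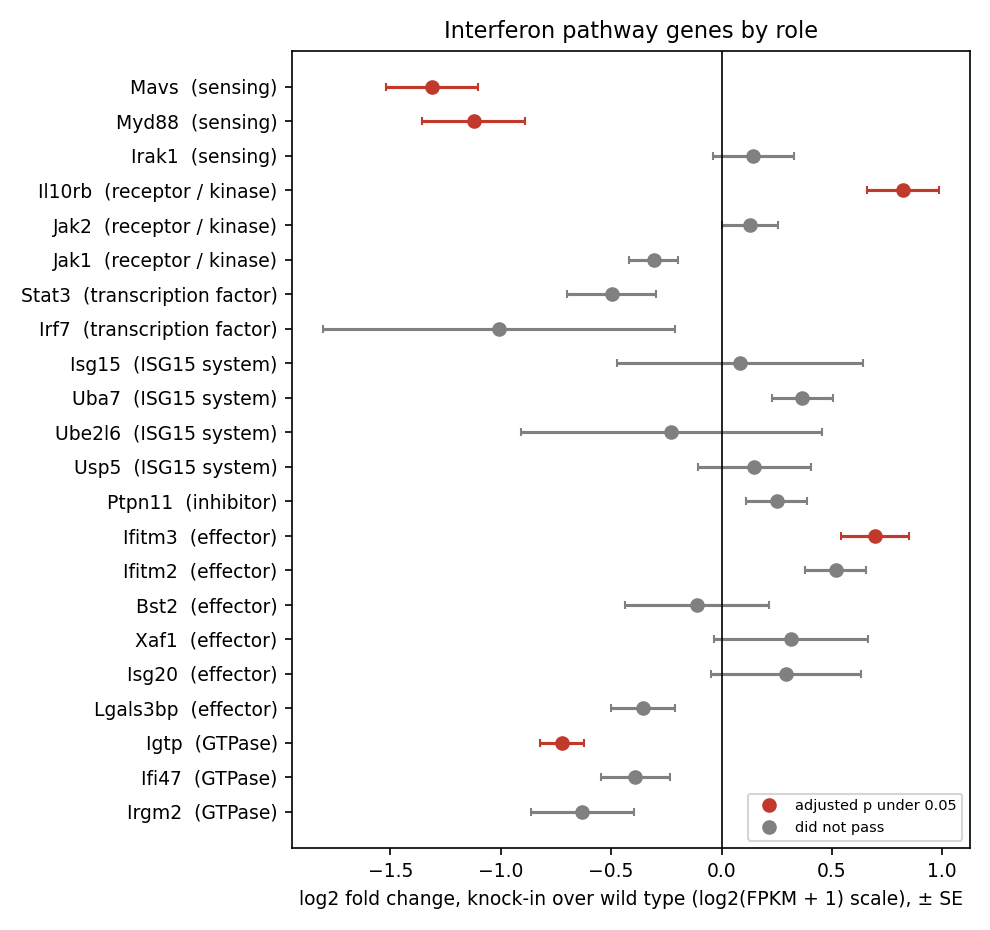
Log2 fold change of knock-in over wild type (points) with SE (bars) on the log2(FPKM + 1) scale, for the tested members, the interferon pathway genes that passed and abundant tested genes of the lists, ordered by role; red marks a limma adjusted p under 0.05. Mavs, Myd88 and Igtp lie below 0 and Il10rb and Ifitm3 above it.

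**Figure D5:**
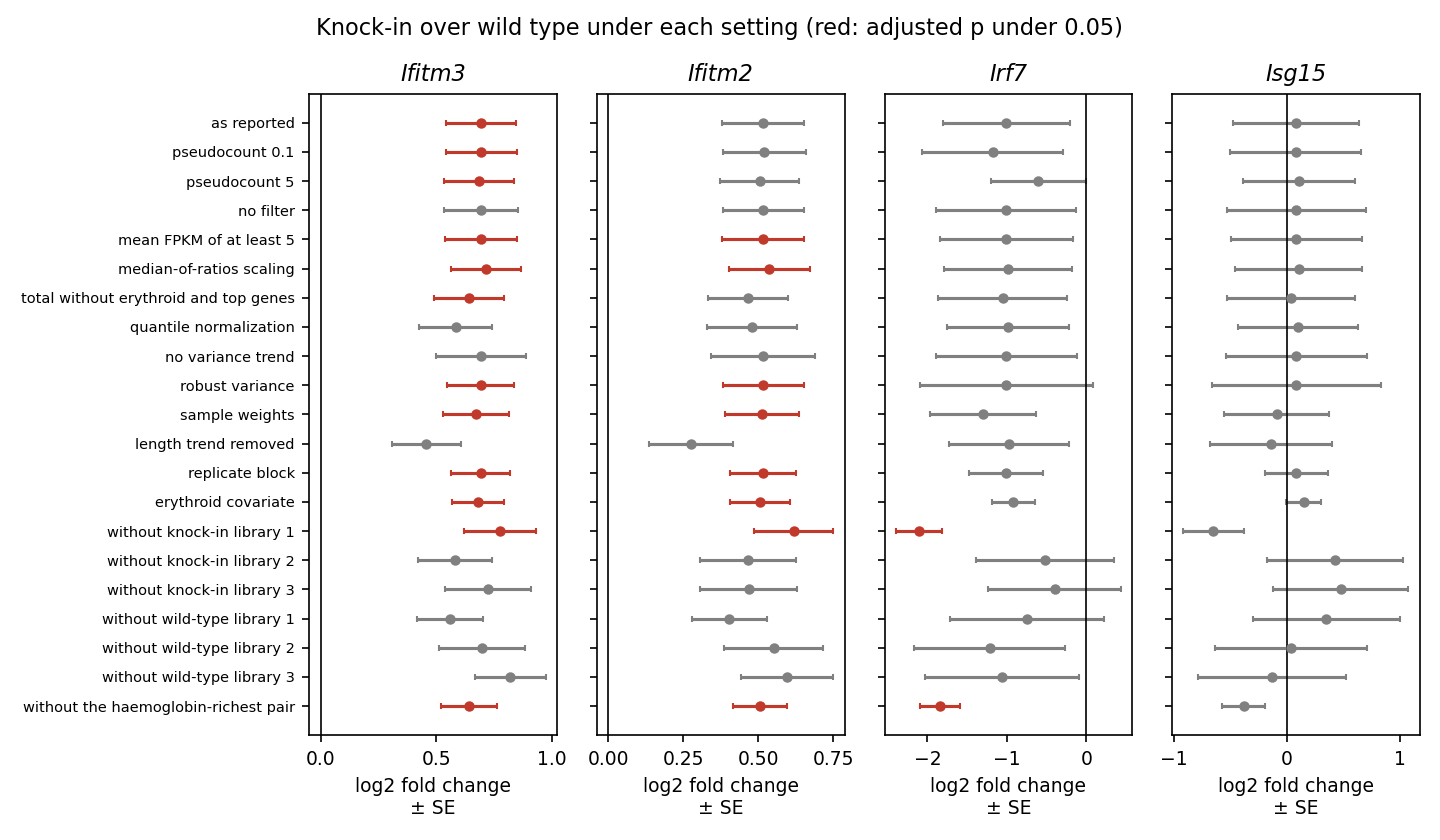
Log2 fold change (points) with SE (bars) of Ifitm3, Ifitm2, Irf7 and Isg15 under each setting of the test, red where the limma adjusted p is under 0.05. Ifitm3 stays between 0.46 and 0.82 and Ifitm2 between 0.28 and 0.62, Irf7 ranges from -2.11 to -0.40, and Isg15 crosses 0.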

How the data were processed

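RNA of mouse platelets was sequenced in 6 libraries, 3 of each genotype as their titles name it. SMART-Seq HT and Nextera XT were the kits, per the labels' protocols. The authors deposited FPKM per gene symbol, 1 table per library. They list Cuffdiff 2.2.1, TopHat2 2.1.1, Bowtie2 2.2.8, SAMtools 0.1.18 and the mm10 build, per the submitters' processing notes. Settings and annotation are not given in the sources used here, and the absolute depth is unknown. A value of 0 can be a failed estimate and is reported as listed at 0.

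Genes with a mean of at least 1 FPKM, 4859 of 24346, were tested on log2(FPKM + 1) with limma 3.58.1 (R 4.3.3). The model held genotype alone and a variance trend. Two-sided p-values were adjusted by Benjamini-Hochberg over all genes tested, and 0.05 was the threshold. The log2(FPKM + 1) scale understates the change of low genes. The code was tested on simulated data. No further scaling was applied. Replicates shared no identical value above 0.

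Members and gene lists were chosen with earlier results of these data known. Beside the members, the text names the genes of each list that passed, its 3 most abundant genes (1 gene is not reported here but stays in tests and counts), the flanking genes of the Ifitm cluster and the 5 genes most like Ifitm3. GENCODE M21 and RefSeq, both GRCm38, gave coordinates, and exon lengths for 4828 of the 4859 genes. Alternatives were other pseudocounts, filters, scalings and variance models, removal of a length trend, a replicate block, and omission of libraries.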

Additional observations from a re-analysis of the deposited data

How the results depend on the processing

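All 20 alternatives kept the direction of Ifitm2, Ifitm3 and Irf7. Tested genes called, 406 as reported, became 107 with no filter, 0 without a variance trend (1197 at an unadjusted p under 0.05 in limma), 614 with the erythroid covariate and 678 without the haemoglobin-richest library of each genotype. They ranged from 0 to 589 with 1 library left out, with 0 once knock-in library 3 was omitted (1002 at an unadjusted p under 0.05) and 79 for knock-in library 2, against 41 and 90 for wild-type libraries 2 and 3. Members called higher, 1 as reported, became 0 with no filter, quantile normalization, no variance trend or the length trend removed. They became 2 (Ifitm2 and Ifitm3) with a filter at 5 FPKM, with median-of-ratios scaling, robust variance, sample weights, the erythroid covariate or the haemoglobin-richest pair left out, and 0 to 2 with 1 library left out. Members called lower, 0 as reported, became 1 (Irf7) without that pair and 0 to 1 with 1 library left out. Without that pair, or without knock-in library 1, genotype and erythroid RNA cannot be told apart. Pathway genes called became 0 higher and 1 lower with no filter, 0 and 0 without a variance trend, 2 and 7 without the pair, 2 higher with the covariate, and 0 to 1 higher and 0 to 6 lower with 1 library left out. The Isg15 log2 fold change turned to -0.0911 with sample weights, -0.14 with the length trend removed and -0.38 without the pair, and Irak1 to -0.0002 without the pair. With 1 library left out Isg15 ranged from -0.65 to 0.48, Bst2 from -0.39 to 0.21, Isg20 from -0.14 to 0.52, Ube2l6 from -1.14 to 0.28 and Rsad2 from -1.22 to 0.34. With the replicate block, 306 genes and 2 members were called, and Nlrp6 was not (limma adjusted p = 0.0510). Deviations of same-numbered libraries correlated at 0.158, 0.0235 and 0.141, and knock-in library 2 correlated best with another number, so the numbers were not taken as pairs. The cause of these changes was not tested. Fragment counts were not used here, so the precision of genes near 1 FPKM is unknown.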
